A study of Brassica carinata with 12 samples.

Results

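Steadily expressed genes of the B genome were described in anthers of synthetic Brassica carinata, a mustard that joins the B genome of B. nigra with the C genome of B. oleracea. Members were chosen by their measured CPM (counts per 1000000 counts of the library) among the genes that the ID places on 1 of the 8 B chromosomes, under 3 conditions. The CPM had to be 10 or more in each of the 12 libraries, the highest had to be at most 2 times the lowest, and at least 1 library had to lie under 200. This gave 2294 genes, 6.12% of the 37470 B-genome genes and 2.36% of the 97149 genes in the table. All 12 libraries entered this choice, so every level, range and shift below describes the chosen genes and tests nothing about them.

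In both forms the seed parent was B. oleracea var. alboglabra and the pollen parent B. nigra. The haploid (BC in the labels) carries 1 set of B and 1 set of C chromosomes, and the tetraploid (BBCC) was obtained by ovule culture with colchicine, an agent that makes cells retain a replicated chromosome set. Young anthers of each form were taken at the stage labelled meiosis, when spores form, and at the one labelled mitosis, when gametes form, with 3 libraries in each of the 4 groups. The labels give the anther as tissue, but the extraction text speaks of floral buds, and whether the 3 libraries are separate plants is not stated, so their spread may be technical. Library totals were 15769687 to 16793767 counts. The tables give no gene names, so the anther could not be checked by marker genes, and the genes are given by ID and chromosome with no function or sequence.

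Genes that every cell needs, such as those for translation, energy supply and protein turnover, are often transcribed at like levels in different tissues, and genes of this kind serve as references for relative measurements. A CPM is itself relative. A gene with a level CPM kept its share of the counts of a library. Its standing against the bulk of genes may still differ between libraries, and a change shared by all transcripts would not be seen. An anther also changes its make-up between these stages, from wall layers around meiotic cells to developing pollen. In whole anthers, fewer cells of a type and less RNA per cell cannot be told apart.

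Of the 37470 B genes, 32770 were under 10 CPM in at least 1 library and 4700 were at or above it in all. Of these 4700, 2385 spanned more than 2-fold, with a median range of 2.68-fold and a highest of 349-fold. A further 21 kept within 2-fold but had 200 CPM or more in every library. The fold limit lay in a dense part of the distribution. BcaB06g29449 on B06 was just inside it, at 34.4 to 68.8 CPM, and BcaB04g20934 on B04 just outside, at 10.9 to 21.7 CPM. At the minimum, BcaB02g09649 on B02 was inside with a lowest value of 10.004 CPM, and BcaB01g01993 on B01 was outside with 9.995 CPM and a range of only 1.28-fold. At the upper bound, BcaB02g07167 on B02 was inside with a lowest value of 199.4 CPM and BcaB06g28513 on B06 outside with 216 CPM.

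Steady genes were found on every B chromosome. B01 held 421, B02 311, B03 354, B04 289, B05 172, B06 238, B07 286 and B08 223. As a share of the genes on the chromosome they made up 4.45% on B05 and 5.51% on B06, and 6.05% to 6.88% on the other 6, with B08 highest. B05 also had the smallest share of genes at 10 CPM or more in every library, 9.46% against 11.1% to 13.7% elsewhere. Among the genes that reached this minimum, the steady share was much more even, from 45.2% on B02 to 51.7% on B08, with B05 at 47.0%. The low B05 value was thus present already in the number of genes at 10 CPM or more.

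**Figure D1:**
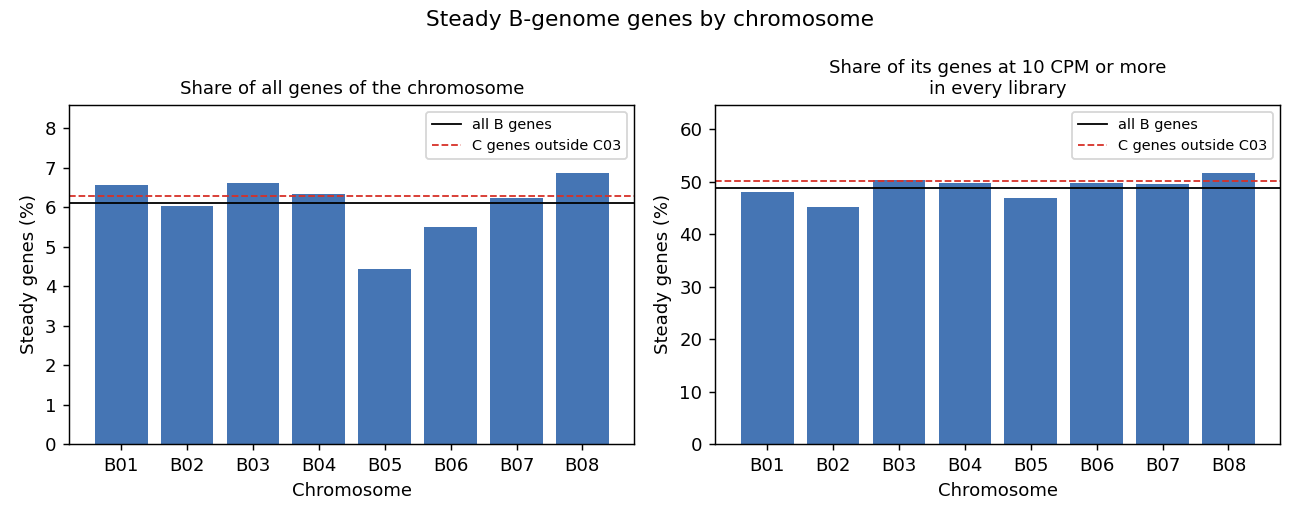
Bars give the percentage of steady genes on each B chromosome, among all its genes (left) and among its genes at 10 CPM or more in every library (right); lines give the same share for all B genes and for C genes outside C03. B05 is lowest on the left, at 4.45%, while on the right all 8 lie between 45.2% and 51.7%.

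The same conditions applied to the C genome gave like shares. Outside chromosome C03, 2930 of 46642 C genes were steady (6.28%), or 50.1% of the 5845 at 10 CPM or more throughout, against 48.8% of such B genes. Their median level was 27.3 CPM and their median range 1.63-fold, against 26.0 CPM and 1.64-fold for the B genes. C03 held 52 steady genes of 5637, or 0.922%, which is 15.1% of its 345 genes at 10 CPM or more. Of 7400 genes with no chromosome in their ID, 413 were steady.

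Gene IDs give no coordinates, and their order was taken as the order along a chromosome. When each chromosome was divided into 10 equal parts by ID, the steady share over all 8 was 4.99% to 6.86%, lowest in the sixth part and highest in the fourth. Single parts differed more. The ninth part of B01 held 68 steady genes (10.6% of its genes) and the third part of B05 held 8 (2.07%). No steady gene lay directly beside 1923 members, and 371 (16.2%) were in runs of adjacent members. These were 158 pairs, 17 runs of 3 and 1 run of 4, from BcaB02g09064 to BcaB02g09067. Only 6.12% of all B genes were steady, so few members would adjoin under random placement too. Whether members adjoined more or less often than that was not tested. The longest stretch without a member was 152 genes, from BcaB03g15701 to BcaB03g15852.

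Most members were of moderate level. The mean CPM over the 12 libraries had a median of 26.0, with an interquartile range of 18.7 to 42.3 and extremes of 11.3 and 245. Below 20 CPM were 698 members (30.4%), between 20 and 40 were 969 (42.2%), and 25 exceeded 160. On the authors' FPKM scale, which also divides by gene length, the median was 19.5 and the extremes were 0.666 and 543. Median FPKM by chromosome was 17.6 to 22.3, lowest on B02 and highest on B05. The smallest count of any member in any library was 160.

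The range from the lowest to the highest library had a median of 1.64-fold (interquartile range 1.47 to 1.80). Only 17 members stayed within 1.2-fold, 695 (30.3%) stayed within 1.5-fold, and 253 (11.03%) lay above 1.9-fold. Libraries of a group lay close together. The median coefficient of variation between the 3 libraries was 5.77% in haploid meiosis and 5.43% in tetraploid meiosis. It was 5.79% in haploid mitosis and 5.61% in tetraploid mitosis. Counting error per library, taken as the inverse square root of a member's mean count, had a median of 4.85%. That is a theoretical value, not one measured between 3 libraries, so it is not directly comparable. Averaged over the 4 groups, the coefficient of variation had a median of 7.77% for members under 20 CPM and 2.70% for those over 160. Group means differed by a median of 1.43-fold between the highest and the lowest group, and in 355 members (15.5%) the spread inside a group exceeded the spread of the group means.

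The deposited FPKM values kept most members level. The FPKM range was at most 2-fold in 2146 of 2294 (93.5%), above 3-fold in 9, and 8.01-fold at the highest. The gene length that the count and FPKM tables together imply (count divided by FPKM and library total) had a median of 1463 bases in members and 1187 bases in B genes at 10 CPM or more with a wider range. This length changed by more than 1.5-fold between libraries in 110 members, so for these the tables are not proportional.

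The steadiest member on each chromosome shows how level these genes can be in CPM on column totals. The TMM factors used further below multiply these totals, by 1.061 to 1.073 at meiosis and 0.922 to 0.952 at mitosis. A gene that is level on column totals therefore stands higher at mitosis on that scale. BcaB01g01850 on B01 had the smallest range of all, 1.12-fold. At meiosis its CPM was 42.9, 42.2 and 44.0 in haploid libraries and 45.9, 44.7 and 45.3 in tetraploid ones. At mitosis it was 47.4, 46.5 and 45.3 in haploid and 45.8, 44.5 and 44.2 in tetraploid libraries. The haploid meiosis libraries were the 3 lowest of the 12. BcaB08g34520 on B08 stood between 21.0 and 23.8 CPM (1.13-fold), with 23.1 ± 0.109 (SD, n = 3) in haploid meiosis, 21.7 ± 0.317 in tetraploid meiosis, 22.1 ± 1.16 in haploid mitosis and 23.4 ± 0.485 in tetraploid mitosis. BcaB06g26952 on B06 stood between 109 and 124 CPM (1.14-fold). Its groups crossed, since tetraploid libraries were above haploid ones at meiosis (123 ± 1.08 against 114 ± 1.77 CPM) and below them at mitosis (112 ± 3.20 against 123 ± 0.941 CPM).

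BcaB02g07167, the steadiest on B02, was also the most abundant of the 8, at 199.4 to 232 CPM (1.16-fold), with its highest group mean in tetraploid mitosis (230.3 ± 1.98). BcaB07g34041 on B07 ranged from 39.6 to 46.6 CPM (1.18-fold), and BcaB04g21075 on B04 from 71.7 to 84.7 CPM (1.18-fold). BcaB03g15106 on B03 ranged from 53.0 to 63.3 CPM (1.19-fold), and BcaB05g25158 on B05 from 14.6 to 17.5 CPM (1.201-fold). The groups of BcaB05g25158 overlapped, with means from 15.6 ± 1.49 to 16.9 ± 0.352 CPM. Its lowest count was 238, against 3348 for BcaB02g07167, so the level of BcaB05g25158 is known less exactly in each library.

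**Figure D2:**
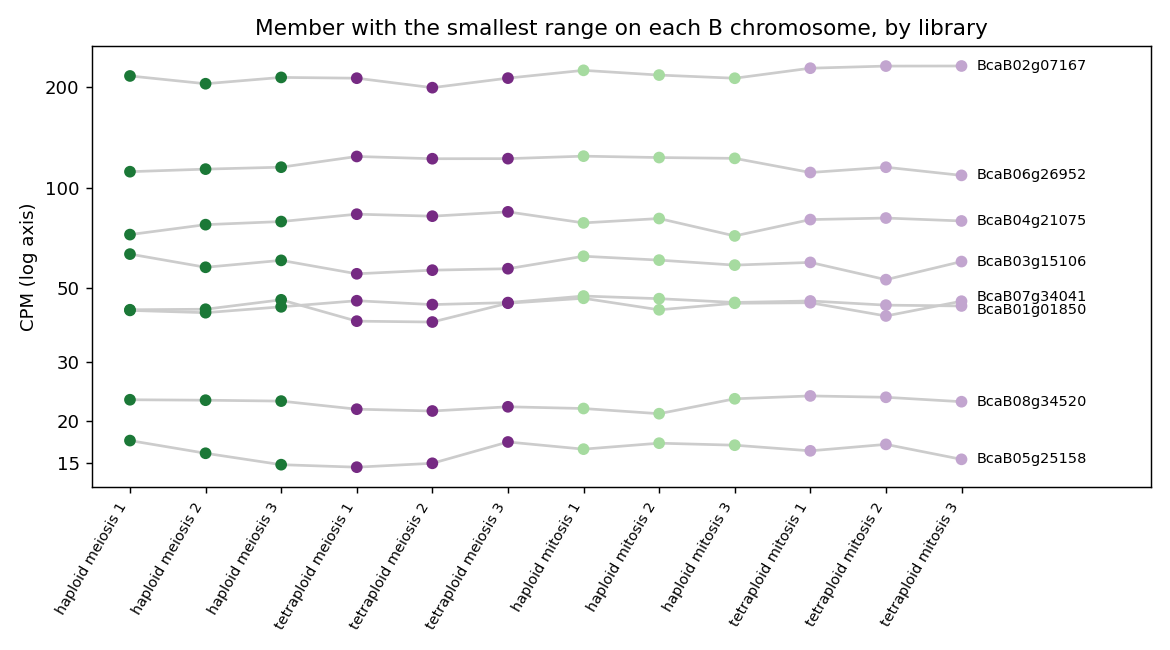
CPM on a log axis in each of the 12 libraries for the member with the smallest range on each B chromosome; points are libraries coloured by group and lines join the values of a gene. On column totals the 8 genes lie between 14.6 and 232 CPM and span 1.12-fold to 1.201-fold.

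The 2 members with the highest mean FPKM were both on B03. BcaB03g13228 averaged 543 FPKM, and its CPM was 238, 227 and 231 in haploid meiosis, 217, 221 and 210 in tetraploid meiosis, 171, 181 and 161 in haploid mitosis, and 161, 164 and 169.9 in tetraploid mitosis. All 6 meiosis libraries lay above all 6 mitosis libraries. BcaB03g11790 averaged 359 FPKM and varied more inside groups, with 182, 199 and 148 CPM in haploid meiosis and 239.6, 191 and 179.8 CPM in tetraploid meiosis. Its groups overlapped in CPM, whereas in FPKM the 3 haploid meiosis libraries (305, 329.7 and 343) lay below the 3 tetraploid ones (383, 412 and 393).

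Together the members took a slightly different share of each library. It was 8.61% ± 0.0199 (SD, n = 3) in haploid meiosis, 8.84% ± 0.00929 in tetraploid meiosis, 8.03% ± 0.0440 in haploid mitosis and 8.35% ± 0.0559 in tetraploid mitosis. The libraries of these groups did not overlap, and mitosis was lower than meiosis and the haploid lower than the tetraploid. With placed genes outside C03, the chromosome with few steady genes, as the denominator, the forms came closer, at 9.74% ± 0.0233 and 9.80% ± 0.0111 at meiosis and 9.36% ± 0.0485 and 9.37% ± 0.0647 at mitosis, where their libraries overlapped. Scaled by TMM (edgeR's trimmed mean of M-values, which aligns the bulk of genes), the order of the stages turned, with 8.11% and 8.29% at meiosis and 8.71% and 8.81% at mitosis in the haploid and the tetraploid.

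**Figure D3:**
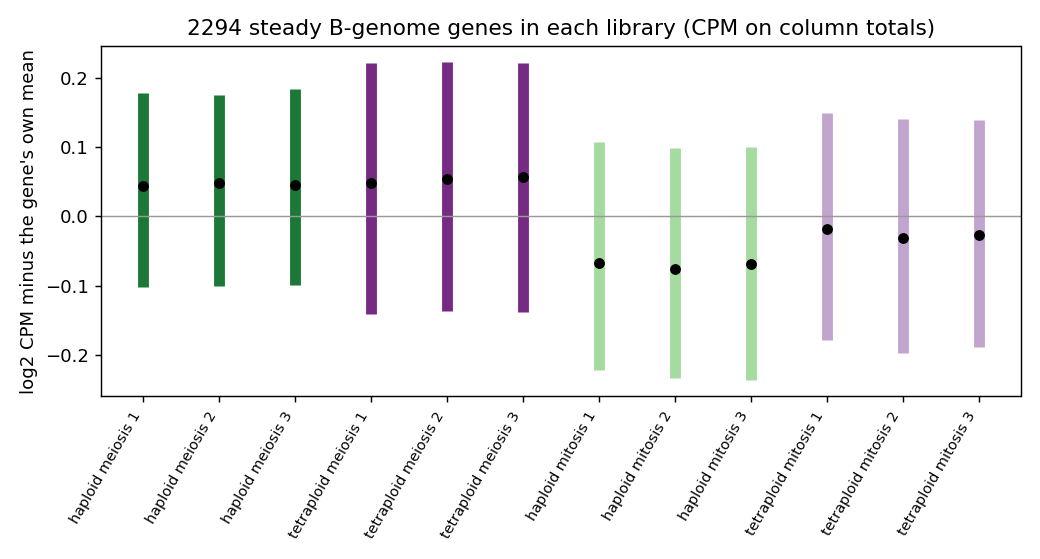
For each library, the black point is the median over 2294 members of log2 CPM (on column totals) minus the gene's own mean over the 12 libraries, and the bar spans the interquartile range. Medians of the 6 meiosis libraries lie between 0.04 and 0.06 and those of the 6 mitosis libraries between -0.08 and -0.02.

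The shift of each member was fitted on the log2 scale with edgeR on the counts of all genes with TMM factors. A call means an adjusted p under 0.05 over the 51860 genes tested, and all 2294 members passed the filter on low counts. Because the 2-fold range was imposed on these same libraries, calls are counted for description only. Members had 160 counts or more in each library, whereas the tested genes reach down to the filter on low counts. For ploidy at meiosis, 36.1% of members under 20 CPM were called and 63.8% of those from 80 to 160 CPM. Shares called of members and of all tested genes are therefore not matched for level. Between the stages the choice of scaling decided the direction of the typical member. With TMM the median stage shift was 0.09 in each form. With total counts it was -0.11 for the haploid and -0.08 for the tetraploid. The median of all tested genes moved with it, from 0.04 to -0.16 in the haploid and from 0.03 to -0.14 in the tetraploid. Relative to that median the members stood 0.05 higher in the haploid under both scalings and 0.06 higher in the tetraploid. A rescaling shared by all genes moves both medians alike, so the 2 scalings give no separate support. The 2-fold limit on CPM also bounded the shifts of members but not those of all genes, so the offset describes the choice as well. With FPKM and a pseudocount of 1 the offset was smaller, at 0.0028 for the haploid and 0.024 for the tetraploid. With FPKM and a pseudocount of 0.1 it was 0.042 and 0.058. With no filter on low counts the haploid offset was 0.071.

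The first question was whether steady B genes lay higher or lower in the haploid at meiosis. The median log2 fold change of members was near 0, at -0.0075 (interquartile range -0.19 to 0.21, extremes -0.85 and 0.82) beside 0.00 for all tested genes. Calls were made for 1090 members (47.5%), 544 higher in the haploid and 546 lower, where 38.3% of all tested genes were called (19.5% higher and 18.8% lower). Shifts were small, with 1402 members (61.1%) under 0.25 in size and 170 (7.41%) at 0.5 or more. Lower-level members leaned higher in the haploid and higher-level ones lower. Under 20 CPM 152 were called higher and 100 lower, and from 80 to 160 CPM 31 were higher and 71 lower. Calls by level, here and at mitosis, were counted with TMM and for members only. Whether all tested genes share this lean was not tested. By chromosome the medians lay between -0.02 and -0.01 on 7 chromosomes and at 0.04 on B05, where 44 members were called higher and 36 lower.

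BcaB06g27950 on B06 had the largest fitted rise in the haploid at meiosis. Its CPM was 36.5, 41.5 and 41.2 in the haploid and 23.1, 22.2 and 22.5 in the tetraploid (log2 fold change 0.82, SE 0.08). The forms did not overlap, nor did they at mitosis, at 40.8 ± 3.03 against 22.96 ± 1.52 CPM. BcaB03g12186 on B03 stood at 44.4, 42.1 and 45.2 CPM in the haploid and 25.8, 24.9 and 24.7 in the tetraploid (0.81, SE 0.08), while at mitosis the forms overlapped at 27.9 ± 1.18 and 28.8 ± 4.56 CPM. It was therefore the haploid meiosis libraries alone that stood high for this gene.

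BcaB03g12816 on B03 had the largest fitted fall, with 12.2, 10.9 and 11.1 CPM in the haploid and 21.1, 20.7 and 20.2 in the tetraploid (-0.85, SE 0.11). BcaB01g03932 on B01, far more abundant, stood at 174, 175 and 162 CPM in the haploid and 306, 299 and 302 in the tetraploid (-0.82, SE 0.04). It kept this difference at mitosis, at 180.3 ± 2.42 against 312 ± 6.31 CPM. In either form its CPM on column totals changed little between stages. The 6 haploid libraries of BcaB01g03932 all lay below the 6 tetraploid ones.

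At mitosis the same question gave a median of 0.0029 (interquartile range -0.19 to 0.20, extremes -0.89 and 0.90) beside 0.02 for all tested genes. Calls were made for 1115 members (48.6%), 546 higher in the haploid and 569 lower, where 47.7% of all tested genes were called (23.3% higher and 24.4% lower). This even split depended on the scaling. It was 449 higher and 656 lower with median-of-ratios factors, 446 and 659 with total counts, 424 and 623 with DESeq2, 395 and 628 with limma-trend on log2(FPKM + 1), and 625 and 525 without C03 genes. For all tested genes the split also moved, to 11053 higher and 13462 lower, 11042 and 13476, 10451 and 12872, and 10792 and 13659 in the same order. Without C03 genes it was 11040 and 11899 of 49260 tested. Members at 0.5 or more numbered 236 (10.3%). Chromosome medians ran from -0.03 on B01 to 0.04 on B05. Of members from 80 to 160 CPM, 45 were called higher and 70 lower, while of the 25 over 160 CPM 10 were higher and 7 lower, where at meiosis 4 were higher and 11 lower.

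BcaB08g35535 on B08 stood at 131, 132 and 129 CPM in the haploid at mitosis and at 70.7, 70.8 and 74.6 in the tetraploid (log2 fold change 0.90, SE 0.05). At meiosis the forms lay closer, at 101 ± 3.97 and 92.2 ± 1.32 CPM, so the haploid was higher and the tetraploid lower at mitosis than at meiosis. BcaB04g21061 on B04 had 45.6, 43.5 and 42.3 CPM in the haploid and 23.0, 24.1 and 26.2 in the tetraploid (0.88, SE 0.07). Its order was the opposite at meiosis, where the haploid stood at 25.5 ± 0.949 CPM and the tetraploid at 33.8 ± 0.872.

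BcaB05g24071 on B05 had 86.7, 91.2 and 88.7 CPM in the haploid at mitosis and 164, 170.3 and 172 in the tetraploid (-0.89, SE 0.05). The tetraploid mitosis libraries stood above all 9 others of this gene. BcaB06g25572 on B06 had 22.1, 22.3 and 22.2 CPM in the haploid and 42.5, 41.0 and 38.7 in the tetraploid (-0.84, SE 0.08). Here the haploid mitosis libraries were the 3 lowest of the 12.

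The stages share no library in these ploidy comparisons. At both stages 202 members (8.81%) were called higher for the haploid, where 9.69% of all tested genes were, and 239 (10.4%) were called lower, where 7.99% were. Neither stage gave a call in 682 (29.7%), beside 37.0% of all tested genes. Opposite calls were made for 152 members (6.63%, beside 5.41% of all tested genes). The difference between the ploidy shifts of both stages, fitted as an interaction, was called for 844 members (36.8%), 410 with a shift more positive at mitosis and 434 more negative, where 30.5% of all tested genes were called (15.6% and 14.9%). This split too moved with the scaling, to 356 and 501 with median-of-ratios factors, 358 and 503 with total counts, 335 and 462 with DESeq2, and 322 and 479 with FPKM. For all tested genes it moved as well, to 7450 and 8262, 7456 and 8263, 7013 and 8063, and 7839 and 10736 in the same order. The median interaction over members was -0.0086 with TMM.

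**Figure D4:**
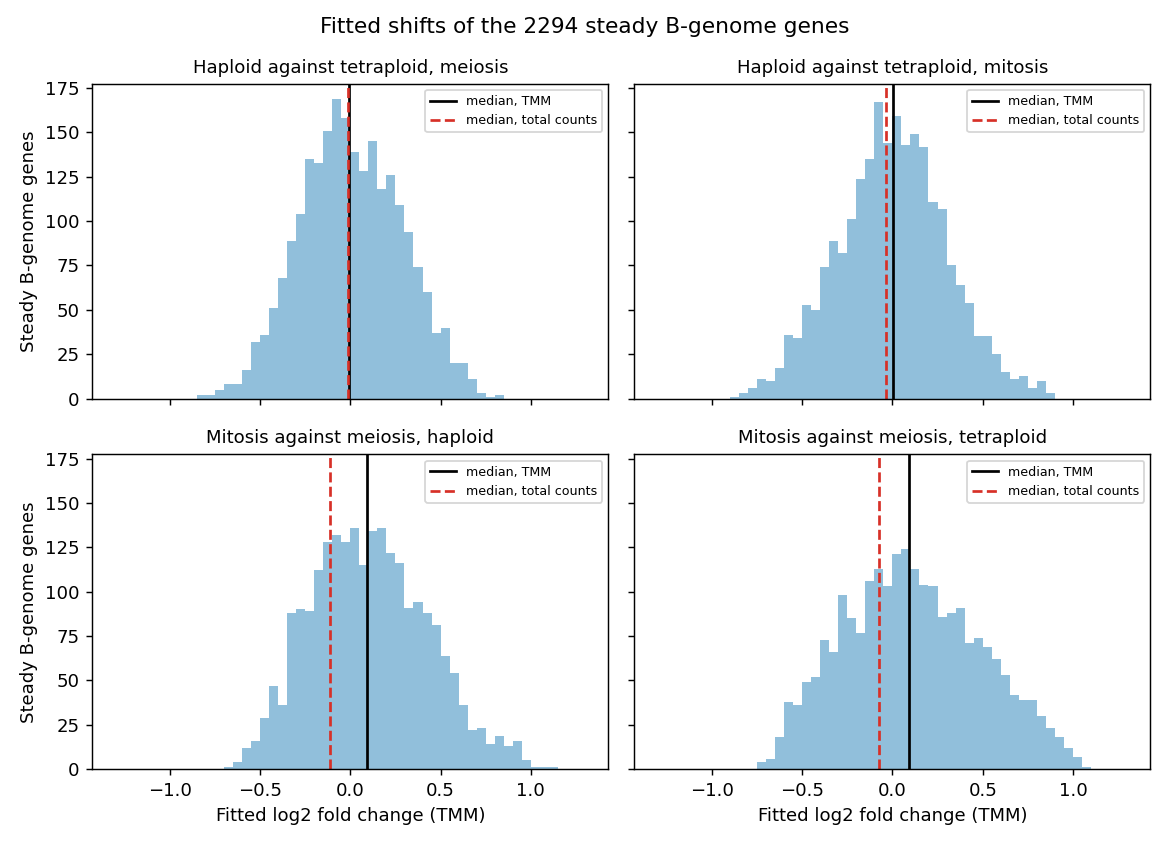
Histograms of the fitted log2 fold changes (TMM) of the 2294 members in 4 comparisons; the solid line is the median with TMM and the dashed line the median with total counts. Both lines lie near 0 for ploidy, while for stage they lie on either side of 0, at 0.09 and -0.11 in the haploid and 0.09 and -0.08 in the tetraploid.

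From meiosis to mitosis in the haploid, 863 members were called higher and 443 lower with TMM, 1306 in all (56.9%), where 63.8% of all tested genes were called (33.3% higher and 30.4% lower). With total counts the larger side turned, to 445 higher and 932 lower, and with FPKM and limma-trend to 363 and 961. It turned for all tested genes too, to 13967 higher and 19876 lower with total counts and 13474 and 20652 with FPKM. The interquartile range of the fitted shift was -0.13 to 0.33 and the extremes were -0.66 and 1.11. Chromosome medians were 0.05 on B06 to 0.13 on B03 with TMM, while the median over all members was below 0 with total counts. Members at 0.5 or more in size numbered 302 (13.2%), and 3 reached 1 or more. That is possible because TMM rescales the CPM that the 2-fold limit was set on.

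BcaB04g19695 on B04 had the largest fitted rise in the haploid, from 19.0, 18.7 and 20.3 CPM at meiosis to 36.5, 37.4 and 35.2 at mitosis (log2 fold change 1.11, SE 0.08). The tetraploid was also higher at mitosis, at 30.4 ± 1.56 against 19.7 ± 1.42 CPM. BcaB03g15973 on B03 went from 24.0, 23.1 and 23.4 CPM to 41.9, 43.5 and 43.4 (1.07, SE 0.07). In the tetraploid its stages lay close in CPM on column totals, at 25.8 ± 1.59 and 26.7 ± 0.342. The haploid mitosis libraries thus stood above all 9 others.

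BcaB01g05869 on B01 went from 44.3, 44.1 and 42.4 CPM to 25.7, 22.3 and 23.8 in the haploid (-0.66, SE 0.08). BcaB02g09773 on B02 went from 213, 209 and 207 CPM to 122, 120.5 and 112 (-0.62, SE 0.05). Both genes were lower at mitosis in the tetraploid as well, with means of 29.3 ± 2.11 against 42.2 ± 2.04 CPM for BcaB01g05869 and 139.9 ± 7.68 against 183 ± 0.510 CPM for BcaB02g09773. In both, the 6 mitosis libraries lay below the 6 meiosis libraries. The 4 genes of this comparison differed between stages in the same direction with TMM, total counts and FPKM.

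In the tetraploid, 933 members were called higher at mitosis and 539 lower with TMM, 1472 in all (64.2%), where 72.0% of all tested genes were called (37.3% higher and 34.7% lower). With total counts there were 610 higher and 876 lower, and with FPKM and limma-trend 563 and 882. All tested genes then gave 16944 higher and 20788 lower with total counts and 16795 and 21358 with FPKM. The fitted shifts spread wider than in the haploid, with an interquartile range of -0.17 to 0.38, extremes of -0.72 and 1.08, and 497 members (21.7%) at 0.5 or more. The difference in spread between the forms was not tested. Chromosome medians (TMM) lay between 0.08 and 0.12.

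BcaB03g11928 on B03 went from 63.5, 57.4 and 57.5 CPM at meiosis to 113, 111 and 109 at mitosis in the tetraploid (log2 fold change 1.08, SE 0.06), beside 65.7 ± 2.99 and 77.1 ± 4.23 CPM in the haploid. BcaB05g23113 on B05 went from 12.8, 13.7 and 14.5 CPM to 25.5, 25.3 and 24.5 (1.05, SE 0.10). Both haploid stages lay between these, at 18.9 ± 1.83 and 20.04 ± 0.700 CPM. For both genes the tetraploid mitosis libraries were the highest of the 12.

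BcaB01g02541 on B01 went from 50.6, 48.5 and 49.7 CPM to 27.6, 25.5 and 27.2 in the tetraploid (-0.72, SE 0.07). Its haploid libraries overlapped between stages, at 42.0 ± 2.51 and 39.5 ± 3.14 CPM. BcaB01g04548 on B01 went from 79.0, 76.3 and 81.2 CPM to 43.6, 43.1 and 41.5 (-0.71, SE 0.06), and the haploid likewise from 67.4 ± 2.73 to 44.2 ± 2.14 CPM. The mitosis libraries of both forms overlapped for BcaB01g04548 and lay below all of its meiosis libraries.

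**Figure D5:**
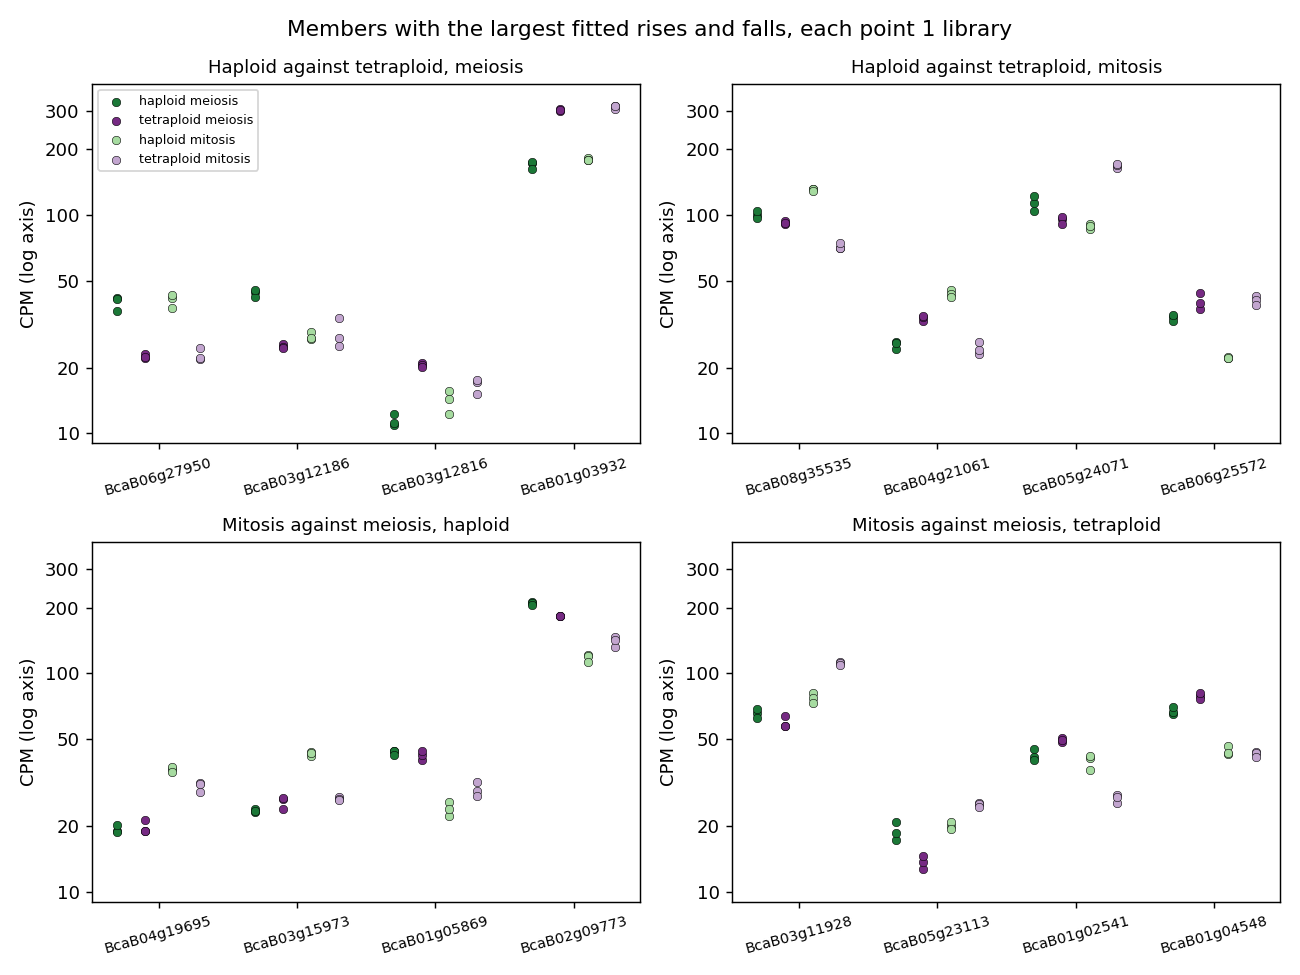
CPM on a log axis for the 4 members with the largest fitted shifts in each of 4 comparisons (2 higher and 2 lower); each point is 1 library, coloured by group. Within a panel the compared groups do not overlap, as in BcaB01g03932, where haploid libraries lie at 162 to 183 CPM and tetraploid libraries at 299 to 317 CPM.

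The stage shifts of both forms, which share no library, had the same call for many members. Higher at mitosis in both forms were 577 (25.2%, beside 27.2% of all tested genes), lower in both were 234 (10.2%, beside 25.0%), and 122 (5.32%, beside 2.28%) had opposite calls. No call in either form was made for 449 (19.6%, beside 18.8%). These counts use TMM, and their split into higher and lower moves with the scaling. The third part of B02, from BcaB02g07439 to BcaB02g07898, was singled out after its values were seen. Its 29 members had median stage shifts (TMM) of 0.28 for the haploid and 0.36 for the tetraploid, with 19 called higher and 4 lower in each form. Calls of higher made up 37.6% and 40.7% of all members and 33.3% and 37.3% of all tested genes, in the same order. The eighth part of B07 was alike, with medians of 0.26 and 0.34. Of its 27 members, 15 were higher and 3 lower in the haploid, and 16 and 4 in the tetraploid. In the eighth part of B03 the medians were slightly below 0, at -0.045 in the haploid and -0.0465 in the tetraploid. Its calls were balanced, with 4 of 17 members higher and 4 lower in each form. Other parts also had medians below 0 in both forms, such as the sixth of B08 (-0.031 and -0.079).

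Judged by its group means, a member was most often highest in tetraploid meiosis (792, or 34.5%) and most often lowest in haploid mitosis (785, or 34.2%), and 455 members (19.8%) had both. These counts use CPM on column totals and were not made for all genes. They were not repeated with TMM, under which the stage order of the members' summed share turned. The opposite arrangement, highest in haploid mitosis and lowest in tetraploid meiosis, was seen in 234 (10.2%). In 220 members (9.59%) no call was made in any of the 4 comparisons, beside 13.0% of all tested genes, and 281 (12.2%) were called in all 4, beside 16.1%. The 220 uncalled members had a lower median level, 18.6 against 27.3 CPM, and a narrower median range, 1.43-fold against 1.66-fold.

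When the conditions were applied to 9 libraries and the remaining group was then added, the share of chosen genes that still met them differed between groups. It was 89.2% of 2568 genes for haploid meiosis, 79.95% of 2868 for tetraploid mitosis, 75.9% of 3022 for haploid mitosis and 71.8% of 3192 for tetraploid meiosis. For haploid mitosis, 574 of the genes lost had a lower mean in the added group than in the others and 155 a higher one. For tetraploid mitosis, 385 were lower and 190 higher, and for haploid meiosis 145 were lower and 132 higher. For tetraploid meiosis, 393 were lower and 506 higher. All these counts use CPM on column totals. They were not made with TMM or for genes outside the B genome. How far the direction of the losses depends on the scaling was not tested.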

How the data were processed

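Per the labels, RNA came from anthers of haploid and tetraploid B. carinata at 2 stages, 3 libraries a group. The deposited counts are whole-number reads per gene, not normalised, and the deposited FPKM values cover the same genes. Per the submitters' processing notes, featureCounts 2.0.1, TopHat2, Bowtie2 2.2.3 and HISAT2 2.1.0 were named without role or order. Not given in the sources used here: build, annotation, strand setting and handling of reads that fit both genomes, so near-identical B and C copies may share reads. One gene ID with an extra ending in the FPKM table was matched without it.

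CPM used column totals. Counts were fitted in R 4.3.3 with edgeR 4.0.16 (TMM, default filter, 1 mean per group over 12 libraries, two-sided quasi-likelihood test, Benjamini-Hochberg over 51860 genes) and tested on simulated data. The SE is the log2 fold change over the square root of F. Alternatives used DESeq2 1.42.0 and limma 3.58.1 on log2(FPKM + 1) and log2(FPKM + 0.1). Replicate pairs had a mean chi-square per gene of 2.52 to 3.08, so all counted separately. Named genes are the steadiest per chromosome, the 2 of highest FPKM, those at each threshold, and per comparison the 2 largest called rises and falls with no overlap. The members and lists were chosen with earlier results of these data known; marker lists planned for the anther could not be looked up without gene names.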

Additional observations from a re-analysis of the deposited data

Results flagged for a closer look

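Of the 26 members named by level, steadiness or shift, 16 had a ploidy difference that differed between the stages in edgeR's interaction test (adjusted p under 0.05 over all tested genes). The same call was made for 36.8% of all members and 30.5% of all tested genes. The members were chosen on these libraries, and most of the 16 for a large shift in 1 comparison, which raises their count, so the values only describe them. The shift of haploid against tetraploid was more positive at mitosis than at meiosis by 1.28 for BcaB04g21061, 0.85 for BcaB03g15973, 0.83 for BcaB01g02541, 0.77 for BcaB08g35535 and 0.65 for BcaB03g12816 (log2 scale). Smaller positive values were 0.36 for BcaB03g11790, 0.32 for BcaB04g19695, 0.31 for BcaB01g04548 and 0.29 for BcaB06g26952, the steadiest member on B06. It was more negative at mitosis by -1.15 for BcaB05g24071, -0.82 for BcaB03g12186, -0.76 for BcaB05g23113, -0.64 for BcaB03g11928, -0.59 for BcaB06g25572, -0.41 for BcaB02g09773 and -0.31 for BcaB01g05869. For 7 of the 26, the order of the forms in CPM turned between the stages, with no overlap of their libraries at either. These were BcaB06g26952, BcaB04g21061, BcaB05g24071, BcaB03g15973, BcaB02g09773, BcaB05g23113 and BcaB01g02541. Many of the 26 were chosen for groups without overlap in 1 comparison, which raises this count. It was not made for all members or all tested genes. Opposite ploidy calls at the stages, a related measure, were made for 6.63% of all members and 5.41% of all tested genes. Groups of 3 were too small to look for single outlying libraries.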

How the results depend on the processing

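The number of members called stayed within 1.5 times its value under every alternative, and the 16 shifts of named genes kept their direction and call in all 320 refits. At meiosis the ploidy median was -0.014 with median-of-ratios factors, total counts (both edgeR) and DESeq2, 0.00061 with no filter, 0.0060 and 0.0057 with FPKM (pseudocounts 1 and 0.1) and 0.017 without C03 genes. At mitosis it was -0.036, -0.037 and -0.036 with the first 3 of these, -0.036 and -0.038 with FPKM and 0.029 without C03. The haploid stage median was 0.084 with median-of-ratios factors and DESeq2, 0.071 with no filter, -0.11 with total counts and -0.13 and -0.14 with FPKM. The tetraploid one was 0.12, 0.12, 0.081, -0.076, -0.084 and -0.089. The interaction median was -0.041 with both size-factor methods and total counts, -0.016 with no filter and -0.061 and -0.065 with FPKM. The cause of these reversals was not tested. Without single libraries the ranges were -0.0090 to -0.00070 and -0.0026 to 0.0069 for ploidy at meiosis and mitosis, 0.070 to 0.092 and 0.087 to 0.10 for stage in the haploid and tetraploid, and -0.026 to -0.0017 for the interaction. Calls were then 923 to 1088, 980 to 1133, 1178 to 1302, 1359 to 1469 and 740 to 783 in the same order.

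The number of steady genes was 2434 with TMM-scaled CPM (2013 of them members), 2365 on totals without C03 genes, 1532 with FPKM scaled to equal sums (1287 of them members), 695 with a 1.5-fold limit and 1163 with a minimum of 20 CPM. Without single libraries it was 2321 to 2377. Leaving out a whole group or, for shares, a library was added after seeing the data. The share of counts was then 8.60% to 8.62% and 8.84% to 8.85% in haploid and tetraploid meiosis, and 8.01% to 8.06% and 8.33% to 8.38% at mitosis. With other denominators it was 9.74%, 9.80%, 9.36% and 9.37% (placed genes outside C03) and 8.11%, 8.29%, 8.71% and 8.81% (TMM), in that order.

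Same-numbered libraries did not deviate together (correlations -0.019 to 0.015 across genes), so the numbers were not used as pairs. With 3 libraries a group this cannot show whether they were collected or processed together. The replicate block gave 1065, 1095, 1285, 1454 and 812 calls and medians of -0.0075, 0.0030, 0.091, 0.093 and -0.0082, and it changed no named call. Counting error limits members near 10 CPM, where 160 counts are the smallest seen.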
